A study of Mus musculus with 4 samples.

Results

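The Ly6 family of lung surface proteins was described here by 5 genes, Ly6a, Ly6c1, Ly6c2, Ly6e and Ly6i, of 17780 genes listed in the deposited expression table. They are Ly6 genes of the cluster on mouse chromosome 15, and they were selected on a measured value, namely the lower level of Ly6i when dabigatran was added to amiodarone. The comparison of those libraries, and the level of the amiodarone library that also enters its comparison with vehicle, are therefore given as descriptions of how the genes were picked. All 5 genes were found by symbol, and all were above 1 FPKM in every library. FPKM counts the fragments per kilobase of transcript and per fixed number of sequenced reads, a level corrected for gene length and sequencing depth.

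Lung RNA was sequenced from 4 groups of male mice, labelled C57BL/6 and given as C57BL/6J in the methods, aged 6 to 7 weeks at purchase, with 1 library per group. The groups received by mouth vehicle (carboxymethylcellulose), the anti-arrhythmic drug amiodarone at 300 mg per kg, the thrombin inhibitor dabigatran (given as the etexilate) at 60 mg per kg, or both drugs at these doses, 5 times per week for 4 weeks, and the labels give 28 days of treatment for each library. The study asked whether dabigatran limits the lung inflammation that follows amiodarone. The sources used here do not state whether a library came from 1 animal or several, and without replicates no test between treatments was possible. The libraries held between 17498486 and 18903401 estimated reads. Markers of lung epithelium were high in all libraries, with Sftpc, which encodes surfactant protein C, between 19587 and 20385 FPKM.

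Ly6 proteins are small, disulfide-rich proteins that most often sit on the outer cell membrane through a lipid (GPI) anchor. Their genes arose by repeated duplication, so neighbours in the cluster share much of their sequence. In the mouse they are widely used as markers of blood and vessel cells: Ly6a encodes Sca-1, a marker of blood stem cells that is also found on endothelium and some fibroblasts, Ly6c1 is expressed in endothelium and T cells, Ly6c2 marks inflammatory monocytes, and Ly6e is a broadly expressed gene with a role in the defence against viruses. Ly6a and Ly6e are known to be raised by interferons.

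The cluster members lie within a short interval of chromosome 15 in the mouse genome build GRCm38.p6 (RefSeq annotation). In the order of the chromosome these are Ly6e from 74955025 to 74959904, Ly6i from 74979534 to 74983434, Ly6a from 74994877 to 74998031, Ly6c1 from 75044018 to 75048920 and Ly6c2 from 75108161 to 75112066. Ly6e is on the plus strand and the other 4 genes are on the minus strand. The likeness of their sequences matters for the measurement, because reads that match several genes were divided among them by estimation. The first 150 bases of the coding sequence are therefore shown for the closest pair, Ly6c1 and Ly6c2, from their GENCODE M21 transcripts, with capitals at the positions where the pair differs.
Ly6c1: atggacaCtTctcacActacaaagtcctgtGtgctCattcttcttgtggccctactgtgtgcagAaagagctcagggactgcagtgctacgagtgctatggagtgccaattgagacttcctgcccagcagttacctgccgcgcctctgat
Ly6c2: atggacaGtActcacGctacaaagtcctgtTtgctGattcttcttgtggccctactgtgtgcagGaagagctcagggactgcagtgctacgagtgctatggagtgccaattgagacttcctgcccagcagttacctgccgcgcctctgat

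Of the 9 substitutions between these coding sequences of 396 bases, 6 fall in the stretch shown, and the rest of it is the same in both genes. Over the whole coding sequence Ly6c1 and Ly6c2 were 97.7% identical. The next closest pair was Ly6a and Ly6i, at 86.4%, shown in the same way, with capitals where these genes differ from each other.
Ly6a: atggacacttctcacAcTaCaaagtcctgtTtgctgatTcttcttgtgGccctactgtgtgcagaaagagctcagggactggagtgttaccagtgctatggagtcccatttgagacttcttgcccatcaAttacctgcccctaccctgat
Ly6i: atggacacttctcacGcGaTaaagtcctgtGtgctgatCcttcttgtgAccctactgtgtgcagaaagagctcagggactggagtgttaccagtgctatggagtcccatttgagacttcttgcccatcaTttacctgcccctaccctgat

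Ly6e stood apart from the other members, with 49.9% to 52.6% identity. Of the 100-base windows of the Ly6c1 and Ly6c2 transcripts, 15.3% and 15.8% occur unchanged in a transcript of another Ly6 gene, and none of those of Ly6a, Ly6i or Ly6e do. With 50-base windows the shares were 36.7% for Ly6c1, 33.0% for Ly6c2, 5.84% for Ly6a and 3.34% for Ly6i. The deposited read counts of Ly6e are whole numbers in all 4 libraries, and each of the other members has a count that is not whole in at least 1 library. The split between Ly6c1 and Ly6c2 is thus an estimate, and their sum is given beside it.

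**Figure D1:**
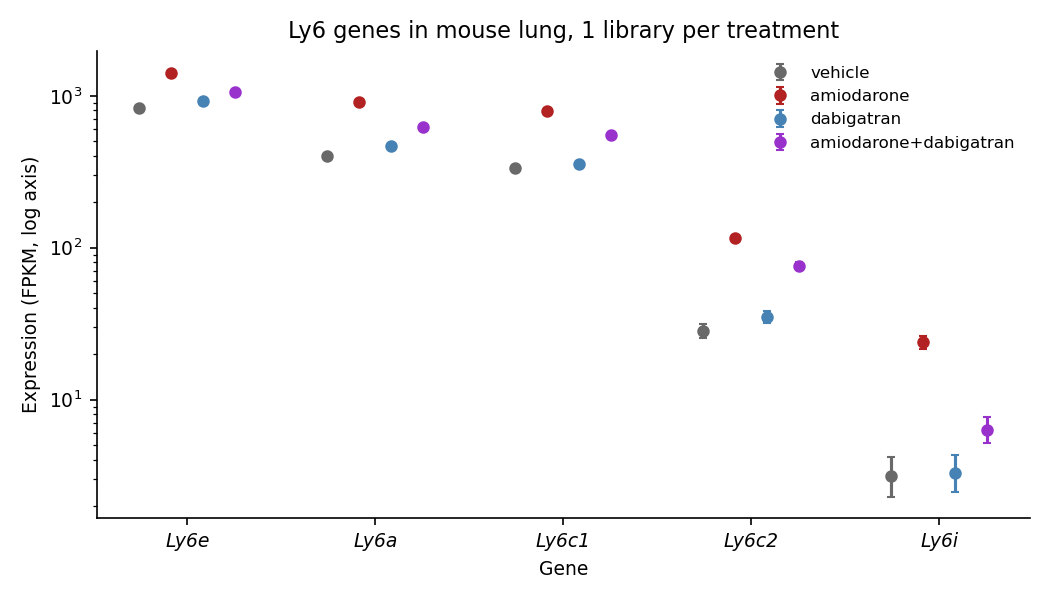
Level of each Ly6 gene in FPKM (log axis) in the vehicle, amiodarone, dabigatran and amiodarone + dabigatran libraries. Points are single libraries and bars are 95% Poisson intervals from the reads, which cover counting error only. In each gene the amiodarone library is highest, followed by the combination, dabigatran and vehicle.

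All 5 genes were most abundant in the amiodarone library, and in all 5 the order of the levels was vehicle, dabigatran, amiodarone + dabigatran, amiodarone. Summed over the genes, the level was 1598 FPKM with vehicle, 3265 FPKM with amiodarone, 1792 FPKM with dabigatran and 2306 FPKM with the combination. A gene was counted as higher or lower here when it differed by at least 1.5-fold on the log2(FPKM + 1) scale, among genes that reached 1 FPKM in at least 1 of the libraries compared. By this rule 5 of 5 genes were higher with amiodarone than with vehicle, where 4.34% of the 13402 genes tested were higher. The ratios below carry a 95% interval computed from the reads of the 2 libraries (exact Clopper-Pearson), which covers counting error only. In bulk tissue a change in the number of cells of a type and a change in RNA per cell cannot be told apart.

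Ly6i, the member that guided the choice, encodes a close relative of Sca-1 and is the least abundant of the 5. It was at 3.13 FPKM with vehicle, 23.9 FPKM with amiodarone, 3.30 FPKM with dabigatran and 6.32 FPKM with the combination, from 47.0, 393, 50 and 103 estimated reads. The amiodarone library stood well above the other 3. The ratio of amiodarone to vehicle was 7.62 (5.63 to 10.6), and the ratio of the combination to amiodarone was 0.265 (0.211 to 0.330). Between dabigatran and vehicle the interval of the ratio, 0.694 to 1.61, included 1. The level with both drugs was 2.02 times that with vehicle, and 1.92 times (1.35 to 2.74) that with dabigatran alone.

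Ly6c2, which marks inflammatory monocytes, had the second highest ratio to vehicle. Its level was 28.2 FPKM with vehicle, 115 FPKM with amiodarone, 34.9 FPKM with dabigatran and 75.8 FPKM with the combination. The ratio of amiodarone to vehicle was 4.08 (3.64 to 4.58), and that of the combination to amiodarone was 0.659 (0.610 to 0.712). Unlike Ly6i, this gene stayed nearer to its amiodarone level when both drugs were given, at 2.69 times vehicle. With dabigatran alone it was 1.24 times (1.08 to 1.42) the vehicle level.

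Ly6c1, its near copy, was at 336 FPKM with vehicle, 790 FPKM with amiodarone, 357 FPKM with dabigatran and 548 FPKM with the combination. It had 2.35 times (2.27 to 2.43) the vehicle level with amiodarone, and with both drugs 0.694 times (0.674 to 0.713) the amiodarone level. The libraries that received amiodarone were again above those that did not. Since reads may pass between the copies, the sum of Ly6c1 and Ly6c2 was also compared: it was 364, 905, 392 and 624 FPKM in the same order of libraries, a ratio of 2.49 for amiodarone to vehicle and of 0.689 for the combination to amiodarone.

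The 2 Ly6c genes did not move in step. Ly6c2 made up 7.43% of their joint estimated reads with vehicle (exact 95% interval 6.72% to 8.18%), 12.2% with amiodarone (11.7% to 12.8%), 8.56% with dabigatran (7.84% to 9.34%) and 11.7% with the combination (11.0% to 12.4%). The intervals of the amiodarone-treated libraries overlapped each other and lay above those of the other libraries, which also overlapped. The intervals do not include the error of dividing reads between the copies.

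**Figure D2:**
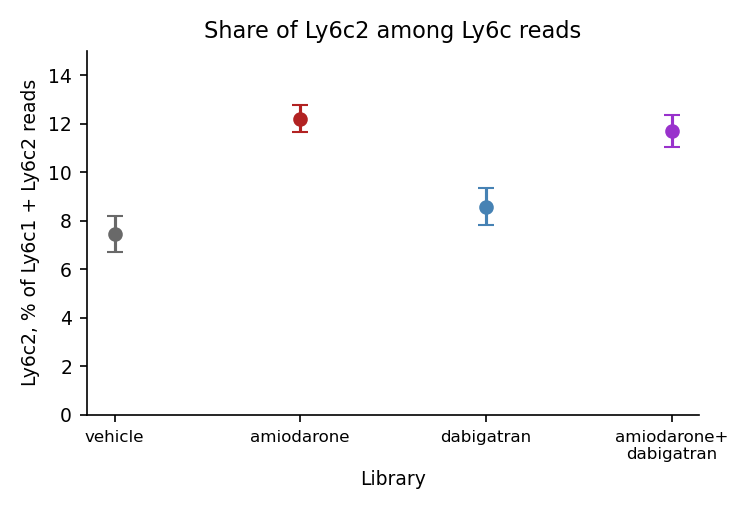
Ly6c2 as a percentage of the estimated reads of Ly6c1 and Ly6c2 together in each library, with exact 95% intervals that cover counting error only. Vehicle and dabigatran are at 7.43% and 8.56%, and amiodarone and the combination at 12.2% and 11.7%.

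Ly6a, which encodes Sca-1, was at 399 FPKM with vehicle, 915 FPKM with amiodarone, 468 FPKM with dabigatran and 624 FPKM with the combination. With amiodarone it was 2.30 times (2.23 to 2.37) the vehicle level. With both drugs it was 0.682 times (0.665 to 0.699) the amiodarone level, just short of the 1.5-fold limit. Dabigatran alone was 1.17 times (1.14 to 1.21) vehicle.

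Ly6e, the most abundant member, was at 832 FPKM with vehicle, 1421 FPKM with amiodarone, 928 FPKM with dabigatran and 1052 FPKM with the combination. Its ratio of amiodarone to vehicle, 1.71 (1.68 to 1.73), was the smallest of the 5, and the ratio of the combination to amiodarone was 0.740 (0.730 to 0.750). In the combination library Ly6e was 1.26 times vehicle, nearer to it than any other member. The ranking of the 5 genes by their ratio of amiodarone to vehicle (Ly6i, Ly6c2, Ly6c1, Ly6a, Ly6e) was the reverse of their ranking by vehicle level, and the ratios of Ly6c1 and Ly6a had overlapping intervals. The vehicle level is the denominator of this ratio, and the amiodarone library was used in picking Ly6i. The rankings are thus not independent, and nothing is read from their order.

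**Figure D3:**
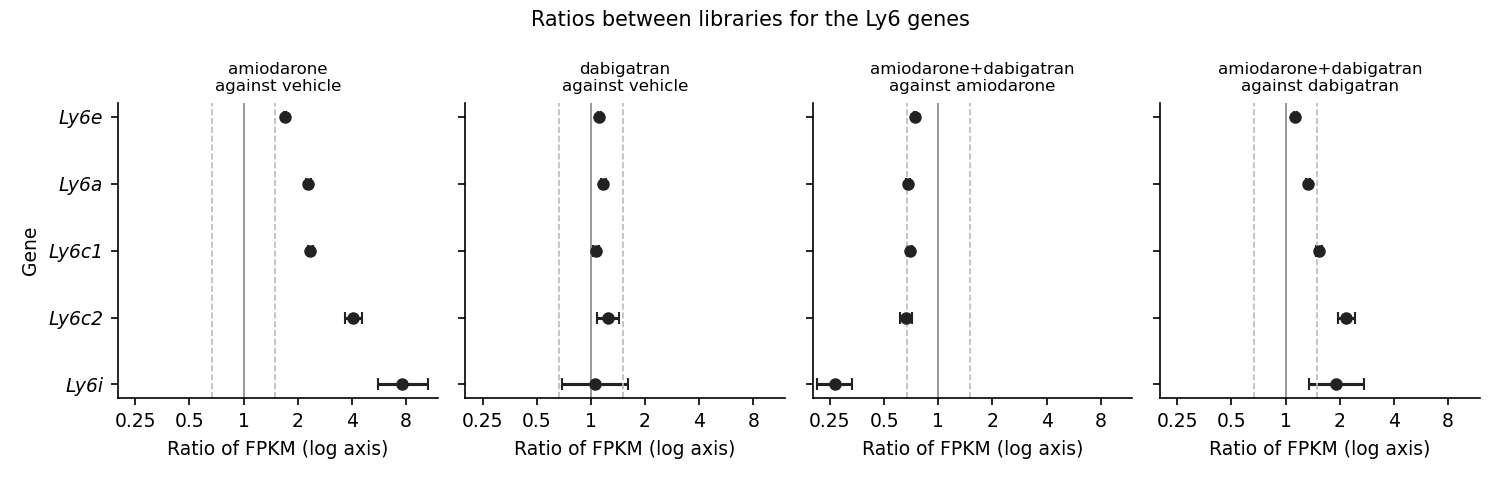
Ratio of FPKM (log axis) for each Ly6 gene in the 4 comparisons, with exact 95% counting intervals. The solid line marks a ratio of 1 and the dashed lines 1.5-fold. The ratios of amiodarone to vehicle run from 1.71 for Ly6e to 7.62 for Ly6i, and those of dabigatran to vehicle from 1.05 to 1.24.

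Dabigatran alone left 5 of 5 genes within 1.5-fold of vehicle, where 0.449% of 13373 genes were higher and 0.508% were lower. All 5 values were nevertheless above vehicle, by 0.06 to 0.30 on the log2(FPKM + 1) scale with a median of 0.16, beside a median of 0.00 over all genes tested. Some other lists were shifted alike. The 12 capillary endothelium genes had a median of 0.19, with 11 above vehicle, and 18 genes of the type I interferon response 0.21, with 16 above vehicle. The 6 non-classical monocyte and 8 fibroblast genes had medians of 0.21 and 0.13. Lists shifted the other way were the 8 tested neutrophil genes, with a median of -0.26 and 1 above vehicle, and the 6 classical monocyte genes, with -0.15 and 0 above vehicle. From amiodarone to the combination, Ly6c2 and Ly6i were lower by at least 1.5-fold and the other 3 were not, where 1.22% of 13261 genes were lower and 1.06% were higher. This is the comparison in which Ly6i was picked, so nothing is read from that count. After rescaling to a common median over genes, Ly6a passed as well, and with Ly6c1 and Ly6c2 summed, only Ly6i passed.

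The combination and dabigatran libraries form a pair that shares no library with amiodarone and vehicle and gives the difference with amiodarone in the presence of dabigatran. The combination library was, however, used in picking Ly6i, so this pair is not independent of the choice. There 3 of 5 genes, Ly6i, Ly6c2 and Ly6c1, passed the limit of 1.5-fold upward, or 2 of 4 without Ly6i, where 3.25% of 13379 genes were higher and 2.04% were lower. The ratio was 2.17 (1.94 to 2.42) for Ly6c2, 1.53 (1.48 to 1.59) for Ly6c1, 1.33 (1.29 to 1.37) for Ly6a and 1.13 (1.12 to 1.15) for Ly6e. The 5 genes had a median of 0.61 on the log2(FPKM + 1) scale, against 1.23 for amiodarone and vehicle, while the medians over all genes were -0.01 and -0.05.

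For each member the ratio was smaller in the presence of dabigatran. The quotient of the ratios (without over with dabigatran) was 3.98 for Ly6i, with an approximate counting interval of 2.53 to 6.26, and 1.88 (1.61 to 2.19) for Ly6c2. It was 1.72 (1.65 to 1.80) for Ly6a, 1.53 (1.46 to 1.61) for Ly6c1 and 1.51 (1.47 to 1.54) for Ly6e. The quotient contains the ratio of amiodarone to the combination, by which Ly6i was picked. It is therefore given as a description and adds no separate support.

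Of 16 further genes of the Ly6 cluster and its neighbourhood on chromosome 15, 10 were listed and 8 had at least 1 FPKM with vehicle or amiodarone. Here 5 passed the limit downward with amiodarone, where 3.93% of all genes tested were lower, and 1 passed it upward, where 4.34% were higher. The median difference was -0.84 on the log2(FPKM + 1) scale, in contrast to 1.23 for the 5 genes above. Along the chromosome the 6 tested genes before Ly6e, from Slurp1 to Ly6k, were all below their vehicle level, and the 2 after Ly6c2, Ly6g and Gpihbp1, were above it. This arrangement was noticed after the values were seen. In it Slurp2 rests on 22 vehicle and 6 amiodarone reads, and Ly6k on 19 and 6. Ly6k reached 1 FPKM only with vehicle and Ly6g only with amiodarone. Both thus entered the count above through the library where they were higher.

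**Figure D4:**
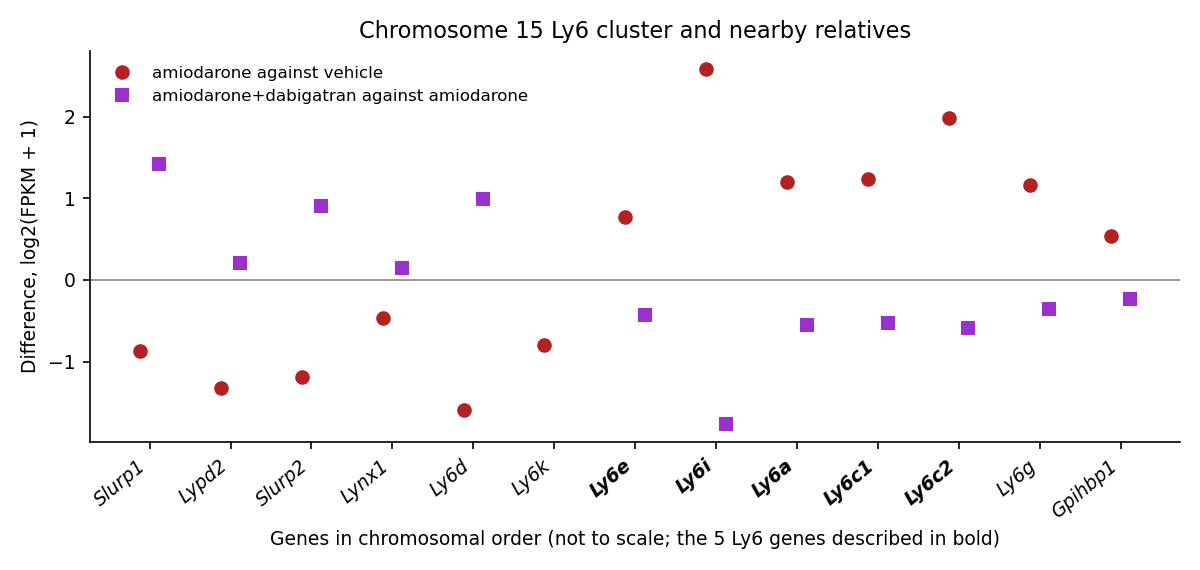
Difference in log2(FPKM + 1) for the tested genes of the chromosome 15 cluster in chromosomal order, for amiodarone against vehicle (circles) and for the combination against amiodarone (squares). Genes below 1 FPKM in both libraries of a comparison have no symbol. From Ly6e onward the circles lie above 0 and the squares below it, and from Slurp1 to Lynx1 and at Ly6d the reverse holds.

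Ly6d, a surface protein of epithelial cells and early B cells, was at 34.2 FPKM with vehicle, 10.6 FPKM with amiodarone, 26.6 FPKM with dabigatran and 22.1 FPKM with the combination. Its ratio of amiodarone to vehicle was 0.311 (0.252 to 0.381), and that of the combination to amiodarone was 2.08 (1.68 to 2.59). Lypd2 was at 141, 55.9, 132 and 64.9 FPKM in the same order, and so remained low with both drugs. Slurp1, a secreted Ly6 relative, was at 13.8, 7.08, 12.6 and 20.7 FPKM. The airway secretory gene Scgb1a1 was also lower with amiodarone, at 73994 FPKM against 124168 FPKM, and its part in these differences was not tested.

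Gpihbp1, a GPI-anchored protein that carries lipoprotein lipase to the capillary lumen, was at 145 FPKM with vehicle, 211 FPKM with amiodarone, 170 FPKM with dabigatran and 180 FPKM with the combination. Its ratio of amiodarone to vehicle was 1.45 (1.37 to 1.54). Ly6g, the surface marker by which mouse neutrophils are usually sorted, had 22 reads with amiodarone and 14 with both drugs, and 1 read with vehicle and 3 with dabigatran alone. The ratio of 19.9 for amiodarone to vehicle rests on that single read, and its interval ran from 3.21 to 820.

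Ly6 relatives outside the cluster were also compared. Of 19 such genes 16 were listed, and 9 were tested for amiodarone and vehicle. Of these 1 passed the limit upward and 4 passed it downward, with a median of -0.50. Over all genes tested 4.34% were higher and 3.93% lower. Spaca4, counted as lower, reached 1 FPKM only with vehicle and had 14 reads there against 3 with amiodarone. Plaur, the urokinase receptor, was the higher one, at 27.6 FPKM with vehicle, 45.4 FPKM with amiodarone, 31.1 FPKM with dabigatran and 41.3 FPKM with the combination. The complement inhibitor Cd59a was lower, at 11.7, 6.73, 8.49 and 7.31 FPKM. Ly6g6d on chromosome 17 was between 5.05 and 5.65 FPKM in all libraries.

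Other genes with similar profiles were sought among 10148 genes with at least 5 FPKM in any library, by the Euclidean distance between differences from vehicle in the other 3 libraries on the log2(FPKM + 1) scale. The profile over 4 libraries nearest to that of Ly6i was that of Lcn2, the iron-binding protein lipocalin 2 (distance 0.22), followed by the interferon-response genes Irf7 and Ifit1 (0.34 each). Lcn2 was at 157, 921, 155 and 320 FPKM with vehicle, amiodarone, dabigatran and the combination. Near to Ly6a were Gbp7 (0.09), which encodes a guanylate-binding protein, and Fkbp1b (0.11). Ly6c1 was closest to Trnp1 (0.11), Fkbp1b (0.13) and Ifi47 (0.13), Ly6c2 to Oas3 (0.21), Zbtb16 (0.24) and Mmp12 (0.24), and Ly6e to Lox (0.04), Tcn2 (0.09) and Gbp5 (0.09).

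Genes of the type I interferon response, a list written out for comparison, were higher with amiodarone in 18 of 18 tested cases, with a median of 1.84 on the log2(FPKM + 1) scale. Of all genes tested, 4.34% passed the limit upward for amiodarone against vehicle. In the combination 15 of the 18 were at least 1.5-fold lower than with amiodarone alone, where the share over all genes was 1.22%. In the presence of dabigatran 5 of them were higher with amiodarone, beside 3.25% of all genes, and the median was 0.43. Ifit3, an interferon-induced protein, was at 36.9 FPKM with vehicle, 184 FPKM with amiodarone, 42.6 FPKM with dabigatran and 62.7 FPKM with the combination. Oasl2 was at 27.3, 135, 30.3 and 58.2 FPKM, and Bst2 at 86.2, 182, 92.6 and 121 FPKM. Genes of the interferon gamma response had 2 of 7 higher with amiodarone, with a median of 0.42. The same shares over all genes apply to the counts of cell markers below. The matching shares of lower genes were 3.93% for amiodarone against vehicle and 2.04% for the combination against dabigatran.

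Markers of cells that carry Ly6 proteins also differed between the libraries. Of 8 tested neutrophil genes 6 passed the limit upward in the amiodarone library against vehicle, and 6 in the combination against dabigatran, with medians of 2.04 and 2.23 on the log2(FPKM + 1) scale. In the latter comparison 1 gene of the list was lower, Ltf, which encodes the granule protein lactoferrin, at 15.2 FPKM against 33.2 FPKM. The cells that Ltf came from were not tested. From amiodarone to the combination 2 of the 8 passed the limit downward, 7 had differences below 0, and the median was -0.37. With dabigatran alone against vehicle the median was -0.26. The summed level of the 11 neutrophil genes was 117 FPKM with vehicle, 624 FPKM with amiodarone, 103 FPKM with dabigatran and 447 FPKM with the combination. S100a9, a calcium-binding protein abundant in neutrophils, was at 45.0, 276, 31.2 and 207 FPKM, and the granule genes Elane and Mpo were between 0.00 and 0.07 FPKM in all libraries.

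Of 6 classical monocyte genes 4 were higher with amiodarone than with vehicle, with a median of 0.61 on the log2(FPKM + 1) scale. In the combination against dabigatran 6 of 6 were higher, with a median of 0.83. From amiodarone to the combination 0 of them passed the limit in either direction, and the median was -0.02. Ccr2, the chemokine receptor of these monocytes, was at 8.52 FPKM with vehicle, 13.6 FPKM with amiodarone, 7.10 FPKM with dabigatran and 13.1 FPKM with the combination, while Ly6c2 was at 75.8 FPKM with both drugs and 115 FPKM with amiodarone. The summed monocyte level was 84.1, 147, 76.1 and 144 FPKM. The part of these cells in the levels of the Ly6 genes was not tested.

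Genes of endothelium, which carries Ly6a and Ly6c1, were listed for comparison. Of 12 capillary endothelium genes 0 were at least 1.5-fold higher and 1 was lower with amiodarone than with vehicle. The median was 0.00, but the differences ran from -1.55 to 0.40, with 6 above 0 and 6 below. The summed level over the 4 libraries ranged from 1475 to 1899 FPKM. From amiodarone to the combination all 12 had values below 0, with a median of -0.25, and 1 passed the limit. In the combination against dabigatran 4 of the 12 were lower. Pecam1, a defining endothelial marker, was at 258 FPKM with vehicle, 276 FPKM with amiodarone, 294 FPKM with dabigatran and 238 FPKM with the combination. Ly6c1 was at 336 and 790 FPKM with vehicle and amiodarone. The part of endothelium in the levels of Ly6a and Ly6c1 was not tested. The 8 fibroblast genes had a median of -0.25 with amiodarone, the 7 T cell genes of -0.10 and the 6 non-classical monocyte genes of -0.16, and none of these 3 lists held a gene at least 1.5-fold higher. Of the non-classical monocyte genes 2 were lower with amiodarone, Nr4a1 at 35.5 FPKM against 81.4 FPKM and Eno3 at 17.01 FPKM against 32.8 FPKM. Another 2 had differences above 0, among them Ace, the most abundant of the list, at 418 FPKM against 281 FPKM. The vehicle level of Ace was near that of Pecam1, while the rest of its list was between 2.74 and 81.4 FPKM with vehicle. The cells that Ace came from were not tested, and it is not read here as a monocyte value. Of 8 tested alveolar macrophage genes 4 were higher and 2 lower with amiodarone, with a median of 0.61. Their summed level was 204, 875, 226 and 1138 FPKM in the order of vehicle, amiodarone, dabigatran and the combination. The rise in the sum lay mostly in Chil3, at 90.3, 731, 113 and 940 FPKM. The lower genes were Ear2, at 39.21 FPKM with amiodarone against 62.35 FPKM with vehicle, and Fabp1, at 0.25 FPKM against 5.79 FPKM. The 6 lung epithelium genes had a median of -0.01.

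**Figure D5:**
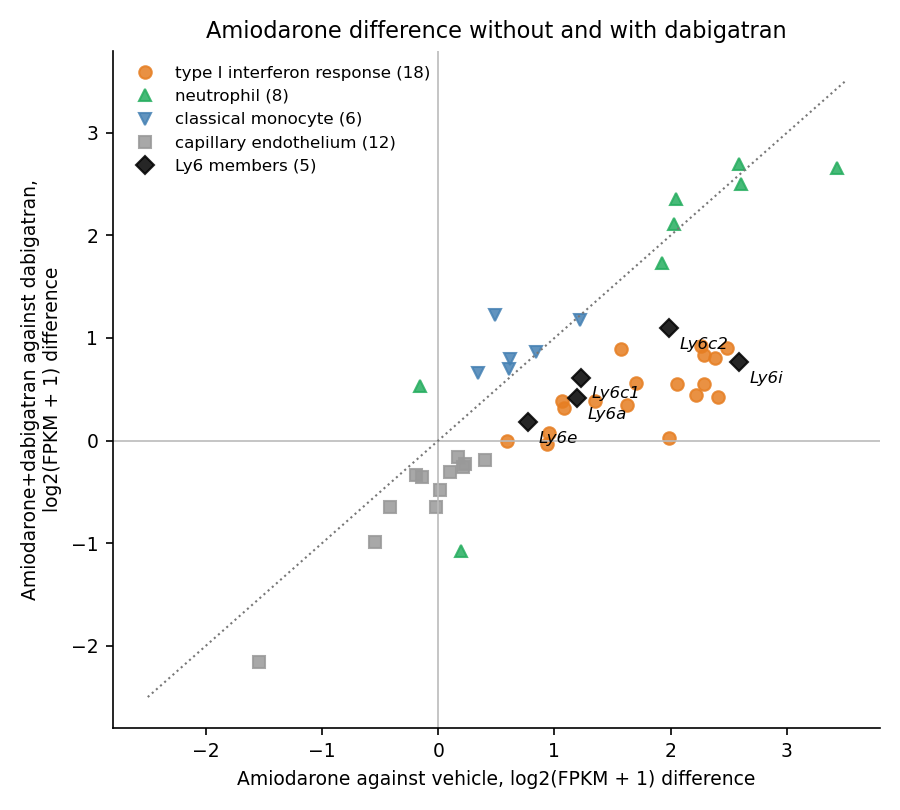
Difference with amiodarone in log2(FPKM + 1) without dabigatran (amiodarone against vehicle, x axis) and with it (amiodarone + dabigatran against dabigatran, y axis), for the 5 Ly6 genes and 4 gene lists. The dotted line marks equal differences. The 5 Ly6 genes lie below it, with medians of 1.23 and 0.61, the interferon genes have medians of 1.84 and 0.43, and the neutrophil genes have medians of 2.04 and 2.23.

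The start regions of Ly6c1 and Ly6c2 are shown because these near copies were both higher with amiodarone and reached different ratios. Each of these genes has 2 windows, and the first listed is shown. The windows run from 250 bases before to 50 after an annotated start in RefSeq for GRCm38.p6, read on the minus strand. That of Ly6c1 is at chr15:75048788-75049087 and that of Ly6c2 at chr15:75111922-75112221. The outer gene ends given above, 75048920 and 75112066, lie in the part before the start. The starts used here are thus inside the genes. Of the 5 genes these 2 have a window in the table used. Capitals mark bases that differ or are unmatched within the overlap of the aligned windows.
Ly6c1: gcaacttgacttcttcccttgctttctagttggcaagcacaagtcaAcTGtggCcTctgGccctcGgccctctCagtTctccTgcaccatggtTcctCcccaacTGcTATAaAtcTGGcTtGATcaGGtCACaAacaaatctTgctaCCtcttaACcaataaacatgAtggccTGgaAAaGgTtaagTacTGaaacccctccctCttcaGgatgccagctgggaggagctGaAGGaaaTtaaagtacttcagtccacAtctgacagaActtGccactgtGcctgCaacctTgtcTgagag
Ly6c2: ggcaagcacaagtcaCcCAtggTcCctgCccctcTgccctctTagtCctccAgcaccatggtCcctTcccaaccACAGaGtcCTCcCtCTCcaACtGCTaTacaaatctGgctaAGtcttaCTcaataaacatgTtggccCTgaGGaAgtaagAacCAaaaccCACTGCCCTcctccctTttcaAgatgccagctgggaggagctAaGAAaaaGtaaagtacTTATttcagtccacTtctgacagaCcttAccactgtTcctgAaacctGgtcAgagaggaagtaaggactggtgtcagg

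Over the overlap of 282 aligned positions, 73.8% were identical, with 58 substitutions and 16 gap positions. The windows shown thus differ more than the coding sequences do, and the other windows were not aligned. A motif of the interferon-stimulated response element, GAAANNGAAA, was searched on both strands and occurred in 0 of 4 windows of Ly6c1 and Ly6c2, against 3.44% of all 32851 windows. Of the 14 interferon genes with a window 9 held it in any of their windows, Ifit3 and Isg15 among them. This is a count of genes and is not on the same footing as the share of windows. No match says only that these letters are not in these windows.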

How the data were processed

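Lung poly(A) RNA was sequenced on the DNBseq platform by the authors, who used HISAT 2.0.4 for mapping to GRCm38.p6, Bowtie2 2.2.5 for alignment to gene sequences and RSEM 1.2.8 for quantification. The authors deposited 1 table of 17780 genes with an estimated count of reads and a normalized value per library. The deposited values are read as FPKM, since reads per unit of value scaled with total reads (1.07 for amiodarone against vehicle for both). The 8 columns of means over 2 libraries were not used. The study's methods give a slightly earlier collection day than the labels.

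Groups were taken from the titles of the samples. Levels are FPKM, and differences over many genes use log2(FPKM + 1), which makes differences of weakly expressed genes look smaller. Intervals of ratios come from reads rounded to whole numbers (exact Clopper-Pearson, 95%). They cover counting error only, since no replicate library enters them. Sequenced fragments are not independent molecules, so even that error may be larger than shown. A count of 0 allows up to 3 reads, or 1.71e-05% of the vehicle reads. Alternatives were another pseudocount, filter, limit and scaling, and the sum of Ly6c1 and Ly6c2. No test was made, since each group holds 1 library. The members and the lists were chosen with earlier results of these data known. Named genes are the 5 members, the up to 4 most abundant genes of each list, and the 3 nearest profiles per member, of which 1 is not reported here. Others were named after their values were seen (Ly6g, Ly6k, Slurp2, Spaca4, Elane, Mpo, Isg15 and those that a count required). Coding identity was computed by global alignment (Biopython 1.88) of GENCODE M21 transcripts, and the interval of the quotient of ratios by a normal approximation on the log scale. Computations used Python 3.11.15, pandas 2.3.3 and SciPy 1.17.1, and the procedure was tested on simulated data.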

Additional observations from a re-analysis of the deposited data

How the results depend on the processing

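Each value rests on 1 library per treatment, so counting error is the only error shown, and animal-to-animal variation is not measured. The alternatives were a pseudocount of 0.1, a filter of 5 FPKM or none, a common median over genes, reads divided by the library total in place of FPKM, a limit of 2-fold, and Ly6c1 and Ly6c2 summed. The number of Ly6 genes past the limit with amiodarone against vehicle was 4 or 5 under all of these, and with dabigatran against vehicle it was 0. From amiodarone to the combination it was 2, and 3 when rescaled to a common median, 1 with Ly6c1 and Ly6c2 summed and 1 at 2-fold. From dabigatran to the combination it was 3, and 2 with Ly6c1 and Ly6c2 summed and 1 at 2-fold. The median of the Ly6 genes between dabigatran and vehicle was 0.16, and 0.19 with the filter of 5 FPKM and 0.13 with the Ly6c genes summed. From amiodarone to the combination the median was -0.55, and -0.59 when rescaled. From dabigatran to the combination it was 0.61, and 0.54 with the Ly6c genes summed. The ratios of single members shifted by a factor of 0.974 to 1.03 when rescaled and of 0.980 to 1.02 with reads divided by the total, and no called ratio changed direction.

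Over all genes, 1109 were past 1.5-fold in either direction with amiodarone against vehicle and 323 at 2-fold. With dabigatran against vehicle there were 128, and 356 with a pseudocount of 0.1, 51 with the filter of 5 FPKM and 21 at 2-fold. From amiodarone to the combination there were 302, and 560, 188 and 63 under the same alternatives. From dabigatran to the combination there were 708, and 1120 with a pseudocount of 0.1 and 212 at 2-fold.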
